A study of Mus musculus with 6 samples.

Results

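Oxidative phosphorylation genes were examined in mouse small intestine after ischemia/reperfusion (I/R). Members were taken by gene symbol (symbols starting Nduf, Uqcr, Cox4 to Cox8 or Atp5, plus Sdha, Sdhb, Sdhc, Sdhd, Cyc1 and Cycs) and had to reach a mean of 0.5 FPKM over all samples. FPKM express fragments relative to the length of the transcript and the size of the library. This gave 89 members among 12000 genes tested. The study sequenced small intestine of male C57BL/6 mice aged 8 weeks, with 3 samples of the I/R group (replicates 6, 7 and 9) and 3 of the sham group (replicates 1, 3 and 5). In the study's model blood flow through the superior mesenteric artery was stopped and then restored, and in sham mice the surgery spared the artery. The tissue was whole intestine, and the segment along the gut is not given in the sources used here. Whether the samples came from separate animals is not given in the labels, so the p-values here rest on a spread between samples that may be technical. In bulk tissue, fewer cells of a type and less RNA per cell cannot be told apart.

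The respiratory chain sits in the inner mitochondrial membrane. Complexes I and II feed electrons from NADH and succinate to ubiquinone, complex III passes them to cytochrome c, and complex IV passes them to oxygen. Complexes I, III and IV pump protons, and complex V (ATP synthase) uses the resulting gradient to make ATP. Absorptive enterocytes and gut smooth muscle both rely on this ATP supply, and the chain is a known source of reactive oxygen species when oxygen returns after ischemia.

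Of the 89 members, 36 were complex I subunits, 4 complex II, 9 complex III, 14 complex IV and 16 complex V. Cytochrome c (Cycs), 8 complex I assembly factors that share the Nduf prefix (Ndufaf genes) and factor B (Atp5s) made up the rest. Ndufa4 was counted with complex IV, where its protein is now placed. The rule matched 95 protein-coding symbols in the annotation, 90 of which were listed in the deposited table. Cox6a2, the heart and skeletal muscle form of subunit VIa, was listed but stayed below the minimum in 5 of 6 libraries and on average. The lung and low-oxygen isoform Cox4i2, the low-oxygen gene Ndufa4l2, and Cox7b2, Cox8b and Cox8c were not listed and are not analysed here. No member was listed at 0 in any library.

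Many nuclear genes of the respiratory chain carry sites for NRF1, the ETS factor GABP, ERR receptors and YY1 near their start. RefSeq promoters (build GRCm38.p6, from 250 bases before to 50 bases after the start) were matched by symbol or gene ID for 73 members, with 78 promoters in all. Both strands were searched, and no match of 1 motif overlapped a match of another. The near-palindromic NRF1 consensus, with 1 free base, was in 25.6% of member promoters (20 of 78), against 4.60% of all 32851 promoters. The YY1 letters AAGATGGCG were in 10.3% (8), against 1.40%. The ETS letters CCGGAAGT were in 6.41% (5), against 3.89%, and the ERR letters TCAAGGTCA in 2.56% (2), against 0.423%. The promoters of 6 members are given here in the mm10 sequence, 5′ to 3′ along the gene, with motif matches in capitals. Sdhd and Atp5g3 hold NRF1 and ERR matches, Ndufs6 NRF1 and YY1 matches, and Atp5k, whose groups did not overlap, 1 NRF1 match. Ndufaf2, the member with the lowest p, and Uqcr10, the most variable member, hold no match in this window.
Sdhd promoter, chr9:50603800-50604099, minus strand: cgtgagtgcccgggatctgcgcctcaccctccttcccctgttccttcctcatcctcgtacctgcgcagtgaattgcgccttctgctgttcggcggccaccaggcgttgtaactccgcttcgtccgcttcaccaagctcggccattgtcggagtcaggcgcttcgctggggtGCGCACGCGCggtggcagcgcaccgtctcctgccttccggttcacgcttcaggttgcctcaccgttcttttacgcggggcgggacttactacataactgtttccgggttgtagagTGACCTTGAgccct
Atp5g3 promoter, chr2:73911277-73911576, minus strand: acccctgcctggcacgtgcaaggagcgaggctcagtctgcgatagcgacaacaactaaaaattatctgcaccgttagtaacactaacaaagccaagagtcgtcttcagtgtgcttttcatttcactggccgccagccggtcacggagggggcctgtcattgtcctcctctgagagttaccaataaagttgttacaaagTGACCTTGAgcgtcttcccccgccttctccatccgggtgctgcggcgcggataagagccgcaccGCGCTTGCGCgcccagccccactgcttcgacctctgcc
Ndufs6 promoter, chr13:73328433-73328732, minus strand: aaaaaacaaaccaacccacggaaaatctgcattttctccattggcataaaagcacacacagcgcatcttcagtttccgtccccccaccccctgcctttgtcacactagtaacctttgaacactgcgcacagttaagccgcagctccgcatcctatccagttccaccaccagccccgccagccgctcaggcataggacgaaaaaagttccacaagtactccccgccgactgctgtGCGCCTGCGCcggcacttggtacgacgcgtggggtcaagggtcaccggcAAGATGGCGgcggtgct
Atp5k promoter, chr5:108434350-108434649, minus strand: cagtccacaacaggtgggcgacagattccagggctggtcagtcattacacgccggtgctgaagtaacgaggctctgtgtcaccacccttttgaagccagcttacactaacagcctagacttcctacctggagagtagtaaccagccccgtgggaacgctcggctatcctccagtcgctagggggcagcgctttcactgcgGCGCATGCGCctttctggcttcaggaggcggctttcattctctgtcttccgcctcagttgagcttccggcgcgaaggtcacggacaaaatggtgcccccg
Ndufaf2 promoter, chr13:108158576-108158875, minus strand: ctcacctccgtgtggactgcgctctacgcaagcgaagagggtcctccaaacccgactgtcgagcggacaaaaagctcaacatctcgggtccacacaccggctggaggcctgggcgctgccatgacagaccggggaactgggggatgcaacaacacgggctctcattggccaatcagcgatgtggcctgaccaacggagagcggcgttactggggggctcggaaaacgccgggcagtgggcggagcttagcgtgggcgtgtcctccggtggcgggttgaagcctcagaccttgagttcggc
Uqcr10 promoter, chr11:4704295-4704594, minus strand: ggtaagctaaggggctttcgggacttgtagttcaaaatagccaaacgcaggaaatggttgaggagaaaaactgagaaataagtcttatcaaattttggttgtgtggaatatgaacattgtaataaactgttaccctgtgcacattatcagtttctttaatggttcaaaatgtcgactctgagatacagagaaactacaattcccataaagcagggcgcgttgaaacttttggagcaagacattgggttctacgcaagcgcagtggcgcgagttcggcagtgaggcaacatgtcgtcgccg

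The libraries did not sort by group. Over all tested genes, sham replicate 1 correlated more closely with I/R replicates 6 and 7 (r = 0.921 and 0.917) than with sham replicates 3 and 5 (0.905 and 0.901), and I/R replicate 9 more closely with sham replicates 3 and 5 (0.913 and 0.914) than with the other I/R libraries (0.900 and 0.908). These r values are across genes on log2(FPKM + 1), and genes are not independent replicates. Defining enterocyte markers were high in all libraries: the 12 listed markers summed to 9506 to 17195 FPKM in I/R and 11354 to 21629 FPKM in sham. Among them 5 had a higher and 7 a lower mean log2 value in I/R, with a median log2 fold change of -0.21. At an unadjusted limma p below 0.05, 1 was lower, against 3.38% of all genes, and 0 were higher, against 5.56%. Vil1, a brush border actin bundler, was at 651, 646 and 849 FPKM in I/R and 714, 1068 and 843 FPKM in sham. Tissue content differed widely. All 8 smooth muscle markers were listed, and they summed to 44.1 to 898 FPKM in I/R and 165 to 681 FPKM in sham, with the lowest sum in I/R replicate 9 and the highest in I/R replicate 6. Of 6 neutrophil markers 5 were tested, and they summed to 7.47 to 22.5 FPKM in I/R and 1.07 to 4.49 FPKM in sham. The sham libraries all had S100a8 listed at 0. Of 5 red cell markers 4 were listed, and they summed to 62.9 to 185 FPKM in I/R and 18.8 to 92.1 FPKM in sham. Mean levels in I/R were lower for all 7 goblet cell markers, with a median log2 fold change of -0.92 and 2 of 7 lower at an unadjusted limma p below 0.05 (3.38% of all genes). Their median deviation from each gene's own mean was 0.19, -0.88 and -0.44 in I/R replicates 6, 7 and 9, against 0.64, -0.080 and 0.82 in sham replicates 1, 3 and 5, lowest in I/R replicates 7 and 9. All 6 Paneth cell markers had lower means in I/R, with a median of -0.75, and all 6 were highest in sham replicate 5. Their sums were 315, 78.2 and 91.6 FPKM in I/R replicates 6, 7 and 9, against 50.3, 51.1 and 2381 FPKM in sham replicates 1, 3 and 5. Sham replicates 1 and 3 thus lay below all I/R libraries. The part of these contents in the results that follow was not tested.

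The members took 4.00%, 4.88% and 4.87% of the listed FPKM in I/R replicates 6, 7 and 9, against 3.75%, 4.14% and 4.08% in sham replicates 1, 3 and 5. I/R replicates 7 and 9 lay above all sham libraries, and I/R replicate 6 fell among them. FPKM are scaled to length, which allows a rough comparison of levels between genes. Complex IV and complex V genes were the most abundant, with a median level of 256 and 253 FPKM over members, followed by complex III (166), complex II (151) and complex I (86.3). The assembly factors were far lower, with a median of 6.17 FPKM, against 6.39 FPKM over all tested genes. Within complex I, mean levels ran from 24.96 FPKM for Ndufb2 to 165 FPKM for Ndufa3. Members were also short: their most abundant listed transcript had a median length of 809 bases, against 2787 bases over all tested genes. The part of transcript length in this order of levels was not tested.

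**Figure D1:**
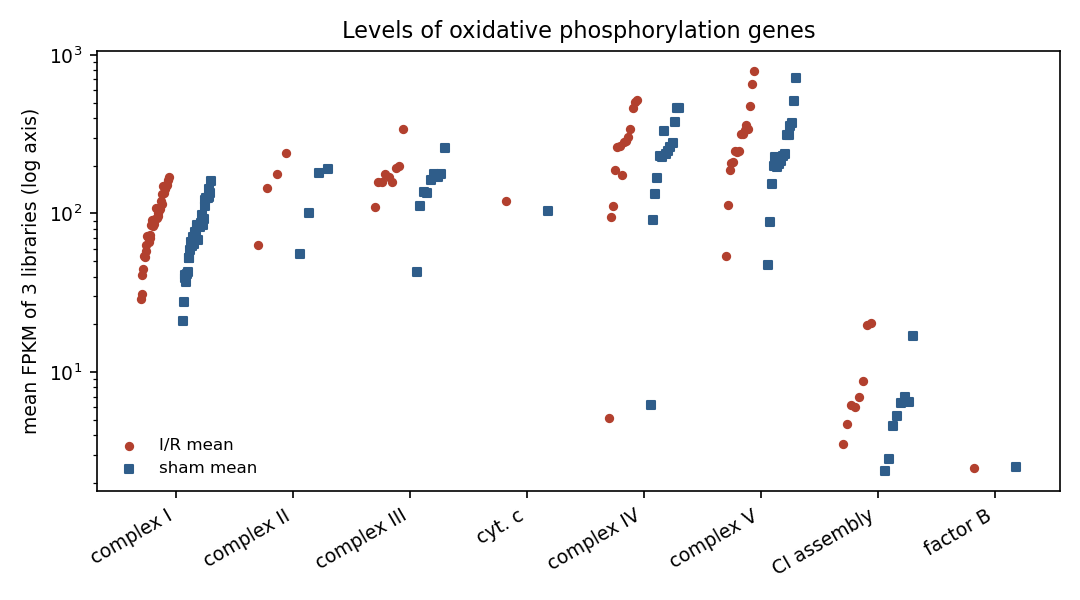
Mean FPKM of 3 libraries for each of the 89 members (log axis), by complex, with I/R means as circles and sham means as squares. The highest means are those of complex V and IV members, others of which (Atp5g2, Cox7a1 and Cox6b2 among them) lie lower, and the complex I assembly factors (CI assembly) lie below 25 FPKM in both groups.

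The study compared I/R with sham, beside a separate experiment in Caco-2 cells, to find altered molecules tied to ubiquitination. Most members had a slightly higher mean in I/R, and no member passed the test over all genes. The mean log2 value was higher in I/R in 79 of 89 members (88.8%), against 62.6% of all genes tested, and lower in 10, against 37.4%. The median log2 fold change was 0.21 over members and 0.12 over all genes. By complex the median was 0.21 for complex I (34 of 36 higher), 0.25 for complex II (3 of 4), 0.25 for complex III (8 of 9), 0.17 for complex IV (11 of 14) and 0.24 for complex V (14 of 16). All 8 assembly factors had a higher mean, with a median of 0.32. With median-ratio scaling the higher members were 24 of 36 in complex I, 3 of 4 in complex II, 6 of 9 in complex III, 10 of 14 in complex IV, 12 of 16 in complex V and 7 of 8 assembly factors.

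**Figure D2:**
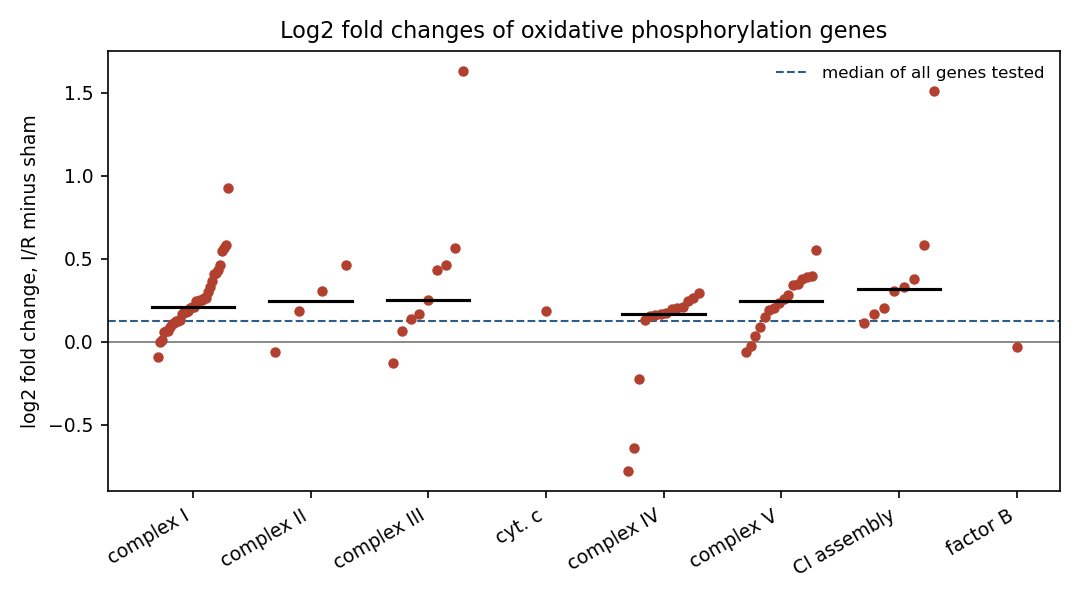
Log2 fold change (I/R minus sham, on log2(FPKM + 1)) of each member by complex; points are genes in order of value, black bars are medians, and the dashed line is the median of all genes tested (0.12). The medians of complexes I to V lie between 0.17 and 0.25, and Uqcr10 and Ndufaf2 stand highest.

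With limma and Benjamini-Hochberg adjustment over 12000 genes, 0 members passed an adjusted p of 0.05, where 2 genes (0.0167%) passed in each direction. At an unadjusted p below 0.05, 1 member was higher in I/R (Ndufaf2), against 5.56% of all genes, and 0 were lower, against 3.38%. The same member met a fold of at least 2 with an unadjusted p below 0.05, against 1.93% of all genes higher and 0.975% lower. The whole I/R range lay above the whole sham range in 9 members (10.1%), against 10.6% of all genes, and the reverse held in 0 members, against 5.89%. The share of non-overlapping members was thus close to the background, and of the 9, Ndufs7, Ndufa5 and Atp5j overlapped when their most abundant transcript alone was used. Median-ratio scaling, which moved the median of all genes to 0.010, left 63 of 89 members higher (70.8%), against 51.2% of all genes, with a member median of 0.066 and 1 non-overlapping member (7.38% of all genes). After quantile normalization 76 members were higher (85.4%), against 49.8% of all genes, and 13 did not overlap with I/R above sham (14.6%, against 7.72%). With equal FPKM totals 14 did not overlap (15.7%, against 10.5%), so the share against the background depended on the scaling.

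The small differences were uneven between libraries. Each gene's deviation from its own mean over the 6 libraries was taken on the log2 scale, and the median over members was -0.089, 0.24 and 0.24 in I/R replicates 6, 7 and 9, against -0.14, -0.084 and -0.0042 in sham replicates 1, 3 and 5. Over all tested genes the same median was 0.16, 0.017 and 0.034 in I/R replicates 6, 7 and 9, against 0.093, -0.19 and -0.035 in sham replicates 1, 3 and 5. The members were thus high in I/R replicates 7 and 9, while I/R replicate 6 lay among the sham libraries, although it was the highest library over all genes. For the 12 enterocyte markers the same median was -0.60, -0.18 and 0.16 in I/R replicates 6, 7 and 9, against -0.39, 0.54 and 0.13 in sham replicates 1, 3 and 5, with the lowest values in I/R replicate 6 and sham replicate 1, and their part in the pattern was not tested. The 7 T and B cell markers, all listed, had a median of 0.96, -0.010 and 0.072 in I/R replicates 6, 7 and 9, against 1.00, -0.82 and -1.03 in sham replicates 1, 3 and 5, highest in I/R replicate 6 and sham replicate 1, and their part was likewise not tested. I/R replicate 7 was the highest library for 36 members and I/R replicate 9 for 38, while sham replicate 1 was the lowest for 33 and sham replicate 3 for 24. Without I/R replicate 6, the member median was 0.31 (0.080 over all genes). I/R then lay wholly above sham in 49 members (55.1%), against 14.3% of all genes. Without I/R replicates 7 and 9 in turn that share was 15.7% and 11.2%, against 17.9% and 18.5% of all genes. Without sham replicates 1, 3 and 5 in turn it was 20.2%, 12.4% and 23.6%, against 26.4%, 12.9% and 16.5%. With I/R replicate 6 left out, 6 members (6.74%) were higher at an unadjusted limma p below 0.05, against 3.21% of all genes. These 6 were Atp5g1, Ndufaf2, Ndufb6, Ndufc2, Uqcr10 and Uqcrc2, and none passed the adjusted threshold (lowest limma adjusted p = 0.364). Leaving out sham replicate 5 also gave 6 members at that p (Ndufa12, Ndufaf2, Ndufc1, Ndufs6, Ndufs8 and Uqcr11; 6.74%), against 5.05% of all genes. Sham replicate 3 left out gave 3 (Ndufaf2, Atp5a1 and Ndufa13; 3.37%), against 3.36% of all genes. I/R replicate 7 and sham replicate 1 left out gave 2 each (2.25%), Ndufaf2 with Sdha and with Uqcrh, against 4.75% and 10.8% of all genes. Without I/R replicate 7, the member median (0.14) was no higher than that of all genes (0.15).

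**Figure D3:**
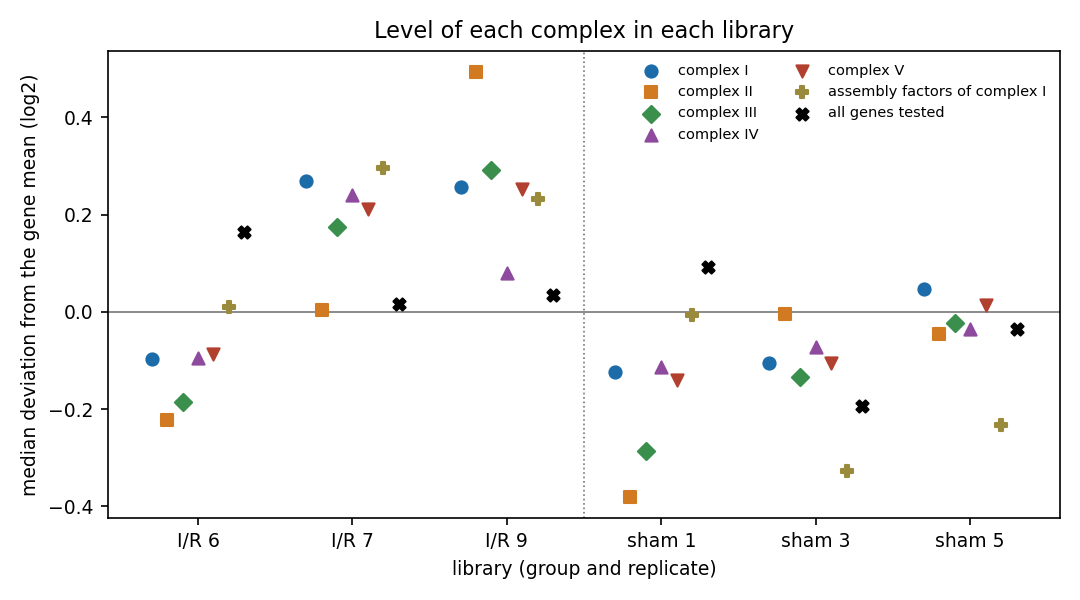
Median deviation of the members of each complex, and of all genes tested, from the gene's own mean over 6 libraries (log2 scale), by library, with I/R libraries left of the dotted line. Complexes I, III, IV and V are above 0 in I/R replicates 7 and 9 and below 0 in I/R replicate 6 and sham replicates 1 and 3.

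Complex I, the NADH dehydrogenase, was examined next. Its 7 nuclear-encoded core subunits oxidize NADH and pass electrons to ubiquinone. All 7 had a higher mean in I/R (3 of 7 with median-ratio scaling), with a median log2 fold change of 0.13, against 0.24 over the 29 accessory subunits (27 higher). Without I/R replicate 9, 4 of the 7 core subunits were higher and their median was 0.015, and without I/R replicate 6 it was 0.27. Ndufs7, an iron-sulfur subunit next to the ubiquinone site, was at 76.7, 80.0 and 97.8 FPKM in replicates 6, 7 and 9 of I/R, against 69.6, 74.8 and 69.0 FPKM in replicates 1, 3 and 5 of sham. The groups did not overlap (log2 fold change 0.24 ± 0.16, limma adjusted p = 0.661). Here and from here on, the error of a log2 fold change is its SE. Ndufs7 is a sum of 2 listed transcripts whose group means lay in opposite orders: the 758-base one was at 68.3, 77.3 and 97.6 FPKM in I/R and 69.4, 43.5 and 22.7 FPKM in sham, with overlapping groups and a log2 fold change of 0.95, and the 983-base one at 8.43, 2.68 and 0.275 FPKM in I/R and 0.265, 31.3 and 46.2 FPKM in sham. Ndufs8, another iron-sulfur subunit, was at 57.3, 49.2 and 53.4 FPKM in I/R and 39.0, 35.6 and 50.01 FPKM in sham. Here sham replicate 5 lay inside the I/R range (log2 fold change 0.36 ± 0.18, limma adjusted p = 0.602). Ndufv1, which binds NADH and the flavin, was at 78.1, 93.7 and 119 FPKM in I/R and 77.2, 90.3 and 95.0 FPKM in sham, and its partner Ndufv2 at 89.1, 119 and 112 FPKM in I/R and 96.2, 97.3 and 98.3 FPKM in sham. In both genes I/R replicate 6 lay close to or below the lowest sham value. The largest core subunit, Ndufs1, was at 36.4, 41.5 and 55.7 FPKM in I/R and 36.8, 42.9 and 42.7 FPKM in sham. Ndufs3 averaged 66.0 ± 10.8 FPKM in I/R and 66.0 ± 15.95 FPKM in sham (SD, n = 3 each), with a log2 fold change of 0.012 ± 0.23.

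Among the accessory subunits, Ndufa12 had the lowest p of complex I. It was at 62.4, 74.7 and 77.8 FPKM in replicates 6, 7 and 9 of I/R, against 43.7, 47.7 and 65.4 FPKM in replicates 1, 3 and 5 of sham. Sham replicate 5 lay above I/R replicate 6 (log2 fold change 0.46 ± 0.21, limma adjusted p = 0.578). This value rested on a sum of 2 transcripts, and the more abundant one alone gave a log2 fold change of -0.18. The 566-base transcript was at 15.4, 73.8 and 75.2 FPKM in I/R and 42.6, 47.2 and 63.7 FPKM in sham, and the 1110-base transcript at 47.0, 0.941 and 2.58 FPKM in I/R and 1.14, 0.502 and 1.69 FPKM in sham, so the longer one carried most of the value in I/R replicate 6 alone. Ndufa13 (GRIM-19), a membrane-arm subunit also known for binding STAT3, was at 81.7, 99.3 and 93.5 FPKM in I/R and 71.6, 80.8 and 41.4 FPKM in sham, with groups that did not overlap (log2 fold change 0.55 ± 0.27, limma adjusted p = 0.601). Ndufc2, a subunit of the membrane arm, was at 117, 161 and 168 FPKM in I/R and 98.9, 109 and 126 FPKM in sham (log2 fold change 0.41 ± 0.20, limma adjusted p = 0.601). The groups overlapped through I/R replicate 6.

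The most abundant complex I members did not differ beyond their spread. Ndufa3 was at 152, 212 and 146 FPKM in I/R and 167, 165 and 149 FPKM in sham, Ndufb8 averaged 162 ± 38.5 FPKM in I/R and 134 ± 14.4 FPKM in sham (SD, n = 3 each), and Ndufa6, a LYR-motif subunit that binds the acyl carrier protein, was at 128, 254 and 70.1 FPKM in I/R and 117, 147 and 163 FPKM in sham. The Ndufa6 value of I/R replicate 9 was the lowest and that of I/R replicate 7 the highest of all 6 libraries. Ndufb11, an X-linked membrane-arm subunit with 1 listed transcript of 908 bases, was at 109.8, 108 and 107 FPKM in replicates 6, 7 and 9 of I/R, against 92.0, 89.8 and 21.7 FPKM in replicates 1, 3 and 5 of sham. The I/R libraries agreed within a few FPKM, and sham replicate 5 stood far below the other 2 sham libraries. The log2 fold change was 0.92 ± 0.54 and the limma adjusted p 0.624. Ndufa5 was the remaining complex I gene whose groups did not overlap, at 65.0, 89.8 and 64.2 FPKM in I/R and 61.4, 63.3 and 63.0 FPKM in sham.

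Ndufaf2, a late assembly factor of complex I and a paralog of Ndufa12, showed the clearest difference among the members. Its protein binds an assembly intermediate and gives way to NDUFA12 as the NADH-oxidizing arm is completed, as known from human cells. Ndufaf2 was at 17.9, 22.1 and 19.5 FPKM in replicates 6, 7 and 9 of I/R, against 8.33, 4.58 and 6.40 FPKM in replicates 1, 3 and 5 of sham. All 3 I/R values were more than 2 times the highest sham value. Its log2 fold change was 1.51 ± 0.24, with an unadjusted limma p of 0.000497, a limma adjusted p of 0.192 over all genes and an exact permutation p of 0.1 (2-sided), the smallest that 3 against 3 samples allow. Leaving out each library in turn gave log2 fold changes from 1.32 to 1.69 and adjusted p from 0.109 to 0.451. The value stands on 1 listed transcript of 678 bases and 4 exons (chromosome 13, 108052589 to 108158623, mm10, minus strand). Smim15, which overlaps the gene on the opposite strand, was at 1.35 to 1.95 FPKM in I/R and 0.943 to 2.47 FPKM in sham. The neutrophil marker sum, from genes near the listing minimum, was likewise higher in all 3 I/R libraries than in any sham library. Its part in the Ndufaf2 difference was not tested. The other 7 assembly factors had log2 fold changes from 0.11 (Ndufaf3) to 0.58 (Ndufaf4), with limma adjusted p from 0.624 to 0.915. Ndufaf4 varied widely within groups, at 5.29, 1.63 and 7.19 FPKM in I/R and 0.711, 3.32 and 4.49 FPKM in sham.

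**Figure D4:**
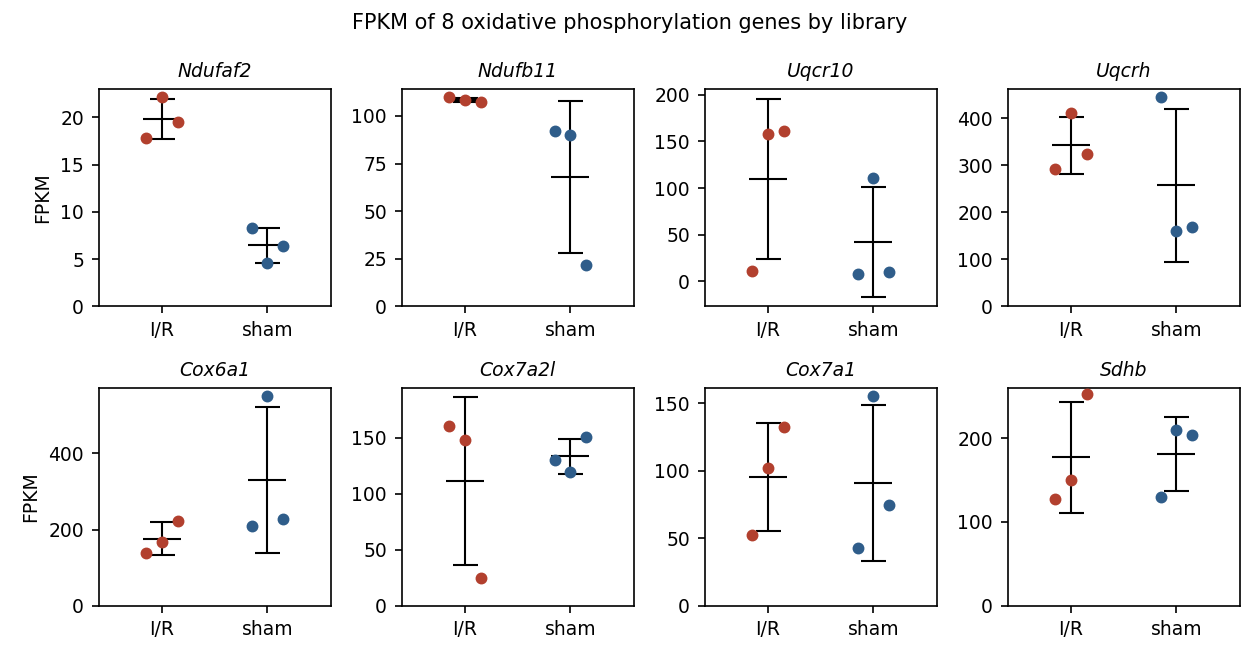
FPKM of 8 members in each library (points, in replicate order), with the group mean and SD (bars) of 3 I/R and 3 sham libraries on separate linear axes. Ndufaf2 is separated between the groups, while Uqcr10, Uqcrh, Cox6a1, Cox7a2l, Cox7a1 and Sdhb overlap, and Ndufb11 has 1 low sham library.

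Complex II, succinate dehydrogenase, joins the citric acid cycle to the chain, and all its subunits are nuclear. Sdha, the flavoprotein that oxidizes succinate, was at 138, 94.5 and 199.6 FPKM in replicates 6, 7 and 9 of I/R, against 87.0, 104 and 109 FPKM in replicates 1, 3 and 5 of sham. I/R replicates 6 and 9 exceeded all sham values and I/R replicate 7 did not (log2 fold change 0.46 ± 0.29, limma adjusted p = 0.643). Sdhb, the iron-sulfur subunit, was at 128, 151 and 253 FPKM in I/R and 129.7, 209.5 and 204 FPKM in sham. I/R replicate 9 and sham replicates 3 and 5 formed the high end in both groups, and the log2 fold change was -0.062 ± 0.32. The membrane anchor Sdhc averaged 63.4 ± 11.7 FPKM in I/R and 55.2 ± 6.75 FPKM in sham (SD, n = 3 each). The other anchor, Sdhd, averaged 241 ± 54.5 FPKM in I/R and 192 ± 21.6 FPKM in sham (SD, n = 3 each). All 4 genes were highest in I/R replicate 9, and the complex II sum over genes was 497 to 814 FPKM in I/R and 431 to 578 FPKM in sham. Cs, citrate synthase, 1 of 13 citric acid cycle genes, had a mean of 199 ± 71.8 FPKM in I/R and 232 ± 160.5 FPKM in sham (SD, n = 3 each). Of these 13 genes 9 had a higher and 4 a lower mean, with a median log2 fold change of 0.099 (5 higher and a median of -0.042 with median-ratio scaling). At an unadjusted p below 0.05, 1 of the 13 was lower, against 3.38% of all genes, and 0 were higher, against 5.56%. This was Ogdh of the 2-oxoglutarate dehydrogenase complex, at 106, 128 and 158 FPKM in I/R and 158, 227 and 185 FPKM in sham. Its unadjusted limma p was 0.04995 and its limma adjusted p 0.559. The groups overlapped slightly, with I/R replicate 9 at 157.66 FPKM and sham replicate 1 at 157.59 FPKM.

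Complex III, which oxidizes ubiquinol, held the most variable member. Uqcr10, a 434-base transcript for a small structural subunit, was at 11.2, 158 and 161 FPKM in replicates 6, 7 and 9 of I/R, against 7.67, 111 and 9.86 FPKM in replicates 1, 3 and 5 of sham. Values near 10 FPKM and values above 100 FPKM occurred in both groups, with I/R replicate 6 and sham replicates 1 and 5 at the low level. Its log2 fold change of 1.63 ± 1.34 was the largest among the members and its limma adjusted p was 0.691. Uqcrh, the hinge protein that sits beside cytochrome c1, was at 292, 410.0 and 324 FPKM in I/R and 445, 159 and 168 FPKM in sham, so that sham replicate 1 was the highest and sham replicates 3 and 5 the lowest libraries. The catalytic subunits were steadier. Uqcrfs1, the Rieske iron-sulfur protein, averaged 193 ± 27.1 FPKM in I/R and 171 ± 13.8 FPKM in sham (SD, n = 3 each). Cyc1, cytochrome c1, averaged 158 ± 36.9 FPKM in I/R and 177 ± 55.7 FPKM in sham (SD, n = 3 each), with a log2 fold change of -0.13 ± 0.31. The core proteins Uqcrc1 and Uqcrc2 had log2 fold changes of 0.14 ± 0.24 and 0.46 ± 0.25, with Uqcrc2 at 109, 174 and 192 FPKM in I/R and 99.1, 115 and 122 FPKM in sham. For Uqcrc2, I/R replicates 7 and 9 exceeded all sham values and I/R replicate 6 did not. Uqcr11, a small subunit, was at 170.0, 154 and 208 FPKM in I/R and 108, 111 and 185 FPKM in sham. Cycs, somatic cytochrome c, which carries electrons to complex IV and triggers the apoptosome when released, was at 93.8, 141 and 123 FPKM in replicates 6, 7 and 9 of I/R, against 99.3, 110.2 and 100.3 FPKM in replicates 1, 3 and 5 of sham. I/R replicate 6 had the lowest and I/R replicate 7 the highest Cycs value (log2 fold change 0.19 ± 0.20, limma adjusted p = 0.755).

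Complex IV, cytochrome c oxidase, had a median log2 fold change of 0.17. Its most abundant gene, Cox6c, averaged 521 ± 60.4 FPKM in I/R and 463 ± 13.5 FPKM in sham (SD, n = 3 each). Cox4i1, the common form of the regulatory subunit IV, averaged 507 ± 69.3 FPKM in I/R and 462 ± 29.2 FPKM in sham (SD, n = 3 each). Cox6b1, which lies on the intermembrane side, averaged 459 ± 59.2 FPKM in I/R and 380.1 ± 14.2 FPKM in sham (SD, n = 3 each). Cox7c was the complex IV member whose groups did not overlap, at 312, 395 and 318 FPKM in I/R and 283, 253 and 296 FPKM in sham (log2 fold change 0.30 ± 0.18, limma adjusted p = 0.635). The 3 members with a lower mean were Cox6a1, Cox7a2l and Cox6b2. Cox6a1, the common form of subunit VIa, was at 138, 167 and 222 FPKM in replicates 6, 7 and 9 of I/R, against 209.8, 550.3 and 227 FPKM in replicates 1, 3 and 5 of sham. Sham replicate 3 was far above the rest, and I/R replicate 9 lay above sham replicate 1 (log2 fold change -0.78 ± 0.41, limma adjusted p = 0.613). Cox7a2l was at 161, 148 and 25.1 FPKM in I/R and 129.9, 119.7 and 151 FPKM in sham. A low value in I/R replicate 9 set its mean: the log2 fold change was -0.64 ± 0.69 and turned to 0.21 without that library. Cox6b2, a testis isoform, was low throughout, at 6.05, 4.38 and 4.87 FPKM in I/R and 4.78, 6.11 and 7.70 FPKM in sham.

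Isoforms of complex IV were read beside muscle markers. Cox7a1, the isoform of heart and skeletal muscle, was at 52.3, 102 and 132 FPKM in replicates 6, 7 and 9 of I/R, against 42.6, 155 and 74.6 FPKM in replicates 1, 3 and 5 of sham. Its highest values were in sham replicate 3 and I/R replicate 9, although smooth muscle markers were lowest in I/R replicate 9, where Acta2, smooth muscle actin, was at 6.26 FPKM, against 36.3 to 154 FPKM in sham libraries. Of 5 striated muscle markers 2 were listed, Ckm and Acta1, with a highest value of 13.96 FPKM. The common isoform Cox7a2 averaged 282 ± 52.6 FPKM in I/R and 236 ± 14.5 FPKM in sham (SD, n = 3 each), and Cox8a, the common isoform of subunit VIII, 189 ± 24.98 FPKM in I/R and 166 ± 5.74 FPKM in sham (SD, n = 3 each). Ndufa4 was at 265, 183 and 337 FPKM in I/R and 197, 241 and 247 FPKM in sham, with its lowest and highest values both in the I/R group.

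Complex V, ATP synthase, held the most abundant member, Atp5b. Atp5b, the catalytic beta subunit of the F1 head, averaged 794 ± 155 FPKM in I/R and 712 ± 101 FPKM in sham (SD, n = 3 each). Atp5a1, the alpha subunit, was at 423, 459 and 543 FPKM in I/R and 298, 462 and 349 FPKM in sham, with sham replicate 3 inside the I/R range (log2 fold change 0.38 ± 0.23, limma adjusted p = 0.632). The c subunit of the rotor ring is encoded by 3 genes for the same mature protein. Atp5g3 was the main one at 529.6, 709 and 723 FPKM in I/R and 344, 612 and 572 FPKM in sham, Atp5g1 averaged 113 ± 26.8 FPKM in I/R and 87.9 ± 12.3 FPKM in sham (SD, n = 3 each), and Atp5g2 54.0 ± 11.0 FPKM in I/R and 47.6 ± 18.3 FPKM in sham (SD, n = 3 each). The order Atp5g3, Atp5g1, Atp5g2 held in all 6 libraries. In 3 complex V genes the groups did not overlap. Atp5k (subunit e, which helps join synthase dimers) was at 288, 381 and 280.0 FPKM in replicates 6, 7 and 9 of I/R, against 247, 219.5 and 247 FPKM in replicates 1, 3 and 5 of sham (log2 fold change 0.40 ± 0.19, limma adjusted p = 0.591). Atp5mpl, the small 6.8-kDa proteolipid, was at 168, 209 and 189 FPKM in I/R and 161, 148 and 154 FPKM in sham, and Atp5j, coupling factor 6 of the stalk, at 211, 275 and 252 FPKM in I/R and 204, 205 and 205 FPKM in sham. Atp5j overlaps Gabpa, on the opposite strand, which encodes the ETS subunit of GABP, and Gabpa was at 9.77, 9.21 and 9.38 FPKM in I/R and 8.99, 7.73 and 8.66 FPKM in sham. The library kit marks strand, but whether the counting used it is not given in the sources used here. Atpif1, the inhibitor that stops ATP synthase from running backward when oxygen is lacking, was outside the symbol rule and was at 153, 116 and 456 FPKM in I/R and 92.8, 358 and 386 FPKM in sham. Its low libraries were I/R replicates 6 and 7 and sham replicate 1.

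In all, 16 members held a value more than 2 times above or below the median of the other 5 libraries. They made up 17.98% of members, against 49.3% of all genes tested, and members were also more abundant than most genes. Beside those described above, they were Ndufs5, Ndufc1 and Atp5d with low values in sham replicate 3, Ndufa10 and Ndufb2 with low values in sham replicate 1, Ndufaf8 in I/R replicate 6 and sham replicate 5, and Ndufaf6. Atp5d, the delta subunit, was at 271, 316 and 364 FPKM in I/R and 277, 118 and 300.2 FPKM in sham, and Ndufs5 at 101, 140.1 and 116 FPKM in I/R and 105, 46.2 and 103 FPKM in sham. The low values in sham libraries enter the fold changes of Ndufs5, Ndufc1 and Atp5d (0.56, 0.58 and 0.55), and none of these passed (limma adjusted p of 0.616 to 0.663).

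Of the 13 subunits encoded by mitochondrial DNA, 4 were listed, and their values cannot be read as levels. The mt-Co1 transcript, for the catalytic subunit of complex IV, was listed at 6.40 and 6.70 FPKM and near 0 in I/R replicates 6, 7 and 9, against 5479, 1.24 and 1.80 FPKM in sham replicates 1, 3 and 5. The cytochrome b transcript mt-Cytb was listed at 243, 335 and 2745 FPKM in I/R and at 2532, 0 and 0 FPKM in sham. The complex I transcripts mt-Nd5 and mt-Nd6 were each above 1 FPKM in 1 sham library only (sham replicate 3 at 685 and sham replicate 5 at 18.2 FPKM) and at 0 in every I/R library. Cells with mitochondria use these genes, so an exact 0 in whole intestine can be a failed estimate.

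The members were set beside related gene lists. The 78 mitochondrial ribosomal protein genes had a median log2 fold change of 0.31, with 63 higher (56 with median-ratio scaling), and 7 of them (of 78) were higher at an unadjusted p below 0.05, against 5.56% of all genes. The 83 cytosolic ribosomal protein genes had a median of 0.42, with 80 higher (78 with median-ratio scaling) and 6 higher at that p, beside the same 5.56% of all genes. Without scaling, I/R lay wholly above sham in 21 of 78 mitochondrial and 29 of 83 cytosolic ribosomal genes. The shares were 10.1% of members and 10.6% of all genes. The reverse held in 0 genes of either ribosomal list, against 5.89% of all genes. Without sham replicate 3 the medians were 0.15 for the mitochondrial and 0.21 for the cytosolic ribosomal genes, beside 0.20 for the members. Of 36 assembly factors outside the symbol rule, 33 were tested and 23 were higher (15 with median-ratio scaling), with a median of 0.11 and 0 past an unadjusted limma p of 0.05. The differences between these medians were not tested. The library order differed too: the cytosolic ribosomal genes were highest in I/R replicate 6 (54 of 83) and lowest in sham replicate 3 (77 of 83), while I/R replicate 6 was the highest library for 5 of 89 oxidative phosphorylation genes.

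Of 13 regulators of mitochondrial biogenesis 12 were tested, 7 of them with a higher mean (median log2 fold change 0.11, and -0.040 after quantile normalization), and 0 passed an unadjusted limma p of 0.05. Without scaling, the whole I/R range lay above the whole sham range in 4 of the 12 (Pprc1, Gabpa, Gabpb1 and Tfam), against 10.6% of all genes. The reverse held in 0, against 5.89%. For Pprc1 the log2 fold change was 0.64 ± 0.30 (limma adjusted p = 0.591). Ppargc1a, the coactivator PGC-1alpha, was at 2.70, 2.53 and 7.33 FPKM in I/R and 5.46, 8.01 and 7.50 FPKM in sham, with I/R replicate 9 at the sham level (limma adjusted p = 0.613). Tfam, which packages and transcribes mitochondrial DNA, averaged 12.3 ± 1.15 FPKM in I/R and 9.62 ± 1.91 FPKM in sham (SD, n = 3 each), and Nrf1 9.40 ± 1.41 FPKM in I/R and 7.40 ± 0.739 FPKM in sham (SD, n = 3 each). In 19 members whose promoters held an NRF1 match the median log2 fold change was 0.23 (16 higher), against 0.21 in 54 members without them (49 higher). The regulator Esrra, an ERR receptor, was at 34.2, 47.2 and 99.3 FPKM in I/R and 99.1, 73.9 and 56.8 FPKM in sham, with the group ranges overlapping.

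**Figure D5:**
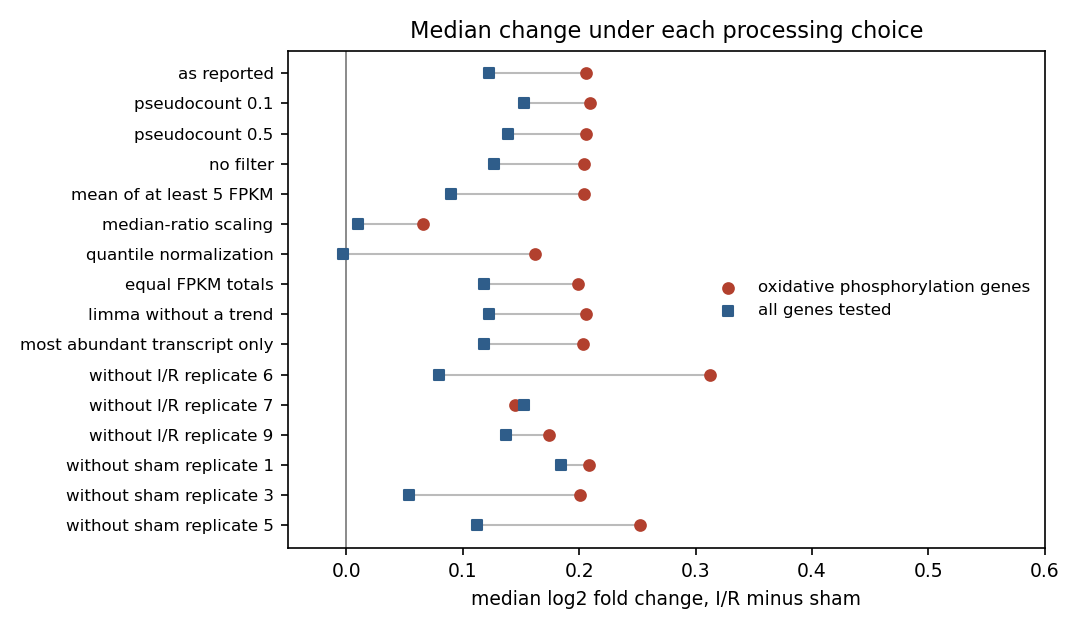
Median log2 fold change (I/R minus sham) of the members (circles) and of all genes tested (squares) under each processing choice. The member median stays above 0 in all 16 settings and lies above the median of all genes in all but 1, without I/R replicate 7.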

How the data were processed

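Small intestine RNA from 3 I/R and 3 sham samples was sequenced from stranded libraries. The submitters' processing notes name cutadapt, HISAT2 2.0.4, StringTie and build mm10 (the annotation used is not given in the sources used here). Transcript-level values are what the authors deposited, as FPKM for 19763 transcripts, each with a mean of at least 0.5 FPKM in at least 1 group, as tested on the values. FPKM keep no counts, so the depth is unknown. FPKM summed to between 315726 and 330814 per library. Of the transcripts, 19702 matched GENCODE M21 without their version, and values were summed per symbol (12382 symbols, 12000 with a mean of at least 0.5 FPKM). Sums miss transcripts that are not listed.

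Differences of I/R from sham were fitted in R 4.3.3 with limma 3.58.1 (eBayes with trend, log2(FPKM + 1), 2-sided, Benjamini-Hochberg over all genes, threshold 0.05). Fold changes on this scale understate changes of low genes. No scaling was applied. On simulated data for this comparison (12000 genes, 5 simulations, 200 changed genes each) 8.00% of 2-fold, 66.8% of 4-fold and 88.4% of 8-fold changes were recovered, and 7.04% of calls were false. The changed genes were drawn above a minimum level, and the noise was independent between genes. Changes of low genes and differences shared by many genes of a library were thus not simulated. Alternatives were pseudocounts of 0.1 and 0.5, 2 other filters, 3 scalings, limma without a trend, the most abundant transcript, and leaving out each library. Members and lists were chosen with earlier results of these data known. Genes were named by unadjusted p below 0.05, by the 3 smallest p and 3 highest levels in complexes I, III, IV and V, as complex I core subunits, Sdh genes, Cyc1 and Cycs, or as isoforms. Uqcr10, Ndufb6, Ndufs6, Ndufb11, Ndufa5, Atp5j, Atp5d, Ndufs5, Ndufc1, Ndufa10, Ndufb2, the Ndufaf genes beside Ndufaf2, and the genes outside the members were named after their values were seen. Some genes are not reported here.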

Additional observations from a re-analysis of the deposited data

How the results depend on the processing

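No paired analysis was possible because the I/R and sham groups share no replicate numbers. No member passed the adjusted threshold under any of the 15 alternatives. Counts of all genes past it were 0 higher with median-ratio scaling, 1 higher with quantile normalization and with the most abundant transcript, 1 lower at a mean of at least 5 FPKM, and with 1 library left out 0 to 4 higher and 0 to 5 lower. Members higher at an unadjusted p below 0.05 numbered 2 after quantile normalization (2.25%, against 4.33% of all genes) and 1 to 6 with 1 library left out (1.12% to 6.74%, against 3.21% to 10.8% of all genes). The median log2 fold change over members stayed between 0.066 and 0.31. With median-ratio scaling it was 0.068 for complex I, 0.10 for complex II, 0.10 for complex III, 0.026 for complex IV and 0.10 for complex V. Directions of named members turned, none past the threshold and the cause not tested: Cox4i1 -0.017, Ndufa3 -0.077, Ndufs1 -0.036, Ndufs3 -0.13, Ndufv1 -0.013, Ndufv2 -0.022, Uqcrc1 -0.0060 (log2 fold changes, median-ratio scaling), Ndufs3 -0.020 (quantile normalization) and Ndufa12 -0.18 (most abundant transcript only, which leaves out the longer transcript). With 1 library left out the log2 fold change ran from -0.066 to 0.50 for Atp5g2, from -0.27 to 0.65 for Cox7a1, from -1.10 to 0.21 for Cox7a2l, from -0.42 to 0.047 for Cyc1, from -0.10 to 0.17 for Ndufa3, from -0.047 to 0.39 for Ndufa4, from -0.57 to 0.36 for Ndufa6, from -0.063 to 0.24 for Ndufs1, from -0.13 to 0.20 for Ndufs3, from -0.027 to 0.27 for Ndufv1, from -0.35 to 0.14 for Sdhb and from -0.072 to 0.31 for Uqcrc1. Among the values of named members under the alternatives, 615 kept their direction and side of the threshold and 30 turned. Among the counts of genes called and the medians by complex, 188 values stayed close to the main result and 22 moved away from it. Closeness was judged by a set ratio for counts and by the spread between libraries for medians. The unknown depth and 3 libraries per group limit what could be detected: changes of 2-fold were seldom recovered in simulation.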
